A study of Rattus norvegicus with 9 samples.

Results

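The Hedgehog pathway genes described here are 8 genes, Shh, Ptch1, Hhip, Smo, Sufu, Gli1, Gli2 and Gli3, of the 17465 genes in the deposited table. They were chosen by symbol, matched to the NCBI Gene IDs of the table, and no measured value entered the choice rule. Earlier results of these data were known when they were chosen. All 8 passed the filter on low counts. Transcripts were measured by sequencing of ribosome-depleted total RNA from 9 whole fetal lungs of Sprague-Dawley rats, in 3 groups of 3. The control lungs were untreated. The hypoplastic lungs were underdeveloped after a lack of amniotic fluid (oligohydramnios) and received no treatment. The treated lungs were hypoplastic lungs given AFSC-EV, extracellular vesicles from amniotic fluid stem cells. The sources used here do not give fetal age, litter, vesicle dose or route. Nothing states that the lungs of a group came from separate litters, so p-values measure only the spread between these samples.

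Hedgehog proteins are secreted signals. In the developing lung, Sonic hedgehog is made by the airway epithelium, most strongly at the growing tips, and acts on the mesenchyme around them. The receptor Ptch1 holds the membrane protein Smo inactive until it binds the ligand. Active Smo releases the Gli transcription factors from Sufu, and they switch on target genes that include Ptch1, Hhip and Gli1 themselves. Loss of the ligand in mice leaves small, poorly branched lungs, so the pathway is a standard part of the study of lung branching.

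Ptch1 is a classical direct target of the Gli factors, and the letters they bind stand in its promoter window. That window is shown because Ptch1 is both the receptor and a target whose level was followed in every library. The GLI consensus GACCACCCA and its core CCACCCA, which lies within it, were searched on both strands of RefSeq promoter windows on assembly GRCr8, from 250 bases before to 50 bases after each gene's start. Of the 8 genes, 6 had such a window. Shh and Gli1 had none, so their promoters were not searched. The capitals mark the consensus as read on the opposite strand (TGGGTGGTC), 172 bases before the start of Ptch1 (chr17:1555321-1555620, plus strand).
Ptch1: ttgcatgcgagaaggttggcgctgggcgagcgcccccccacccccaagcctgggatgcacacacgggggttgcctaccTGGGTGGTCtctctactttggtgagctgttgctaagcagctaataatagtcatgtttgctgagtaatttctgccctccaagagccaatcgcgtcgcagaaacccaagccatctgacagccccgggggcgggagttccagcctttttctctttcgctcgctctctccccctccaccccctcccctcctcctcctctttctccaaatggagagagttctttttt
The full consensus was in 0.385% of all 33469 windows of that length. Among the 6 matched genes only Ptch1 held it. Its core alone was in 8.87% of all windows and also in that of Gli3. The window of Hhip, another target, held neither. A match of letters is a description of the window and not a measured binding site.

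Library totals ran from 56922779 to 88243188 estimated counts, and every value of the 8 genes rested on at least 550 counts. Levels are given as CPM, the count scaled by library size with TMM factors, and a gene was called when edgeR's p, adjusted over all 12966 genes tested, was under 0.05. The lung mesenchyme marker Tbx4 was at 47.5 to 112.7 CPM in all libraries, and a list of 6 epithelial markers summed to 1464 to 1927 CPM. Some libraries stood apart by markers of other cells. In the hypoplastic group 5 cardiac muscle markers summed to 203.5, 90.38 and 3.909 CPM in libraries 1, 2 and 3, against 4.067 to 15.5 CPM in the control and treated lungs. The 6 mesenchyme markers summed to 9517 CPM in hypoplastic library 2 and to 1225 to 3534 CPM in the other 8 libraries. Col1a1 (5816 CPM) and Col1a2 (3230 CPM) made up most of that sum, and Pdgfra was also highest there (333.1 CPM). Tbx4 (91.26 CPM), Tbx5 (25.31 CPM) and Tcf21 (21.75 CPM) in that library lay within the range of the others. Cartilage markers were highest in hypoplastic library 1 (983.8 CPM, elsewhere 121.7 to 522 CPM) and blood markers in control library 2 (11920 CPM, elsewhere 3571 to 7113 CPM). These libraries hold the lowest hypoplastic and the highest control level of Shh. Of 4 liver markers, which summed to 5.868 CPM in control library 2 and to 0.02712 to 0.1975 CPM elsewhere, Alb was at 0 to 0.03567 CPM throughout. By the Y-linked genes Ddx3y and Eif2s3y, 1 hypoplastic, 1 treated and 2 control lungs were male. These genes summed to 149.6 to 179.8 CPM in male and at most 0.5675 CPM in female libraries. Xist was at 2021 to 2563 CPM in female libraries. It was at 32.68 CPM in control library 1 and 0.2139 to 1.47 CPM in the other male libraries. In bulk tissue, fewer cells of a type and less RNA per cell cannot be told apart.

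None of the 8 genes was called in any of the 3 comparisons. edgeR called 0.00771% of the genes tested in hypoplastic against control lungs and 0% in each of the others. The largest difference of a member with separated groups was that of the ligand gene Shh, which was lower in hypoplastic than in control lungs in every library. Smo, Sufu and Gli3 were nearly level across the 9 lungs, with the highest library at 1.29, 1.22 and 1.21 times the lowest. Gli2 varied more (1.72 times), and its groups overlapped, as did those of the target genes Ptch1, Gli1 and Hhip.

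**Figure D1:**
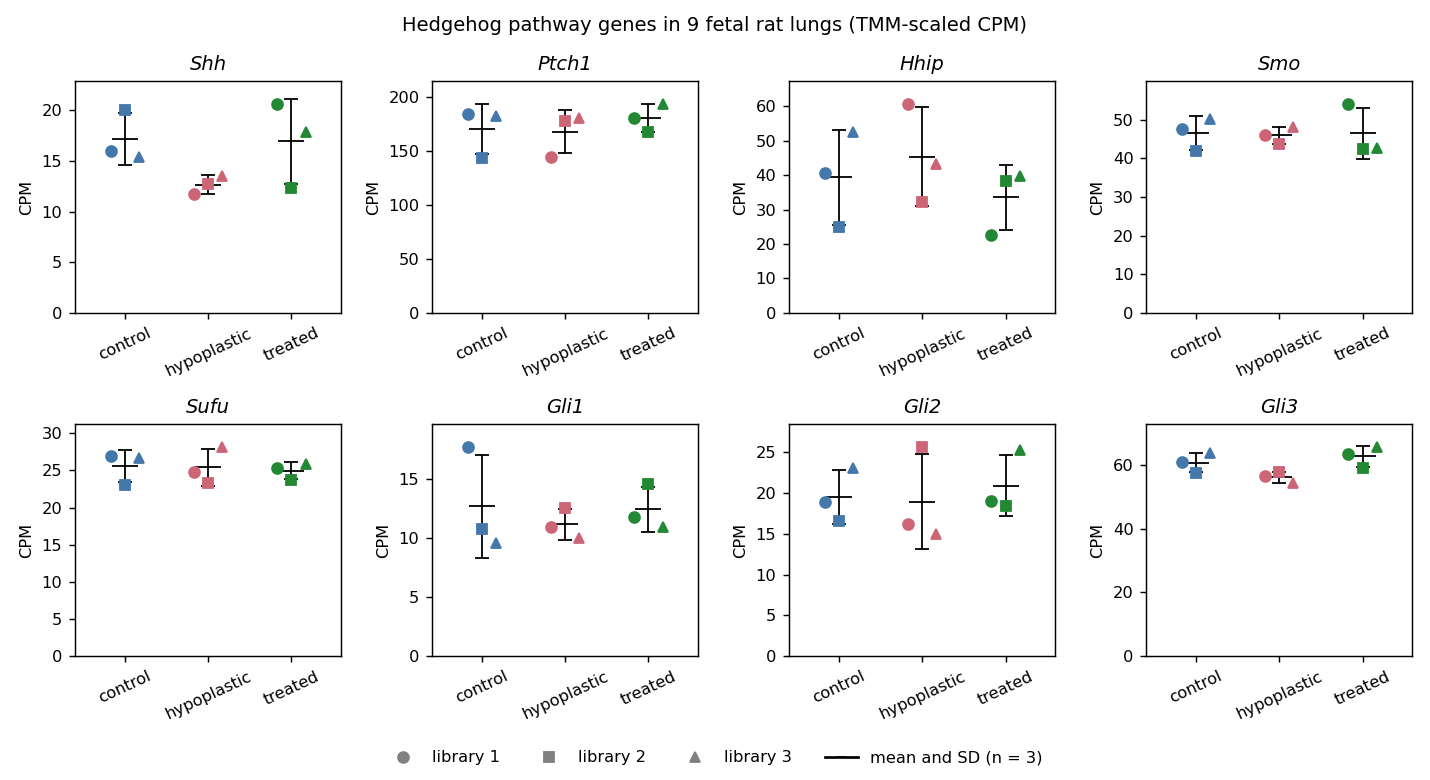
TMM-scaled CPM (vertical axes, from 0) of the 8 genes in control, hypoplastic and treated lungs; each point is 1 library and the bars are the mean and SD of 3. Shh in hypoplastic lungs (11.7 to 13.56 CPM) lies below all 3 control libraries, while Hhip, from 22.63 to 60.6 CPM, has the widest scatter as a ratio of highest to lowest.

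Shh (gene ID 29499) encodes the ligand. Its level was 15.99, 20.08 and 15.45 CPM in the control lungs, 11.7, 12.72 and 13.56 CPM in the hypoplastic lungs and 20.62, 12.35 and 17.88 CPM in the treated lungs. The hypoplastic values lay below every control value. In the treated group libraries 1 and 3 lay above all hypoplastic libraries, and library 2 lay among them. The means were 17.17 ± 2.53, 12.66 ± 0.932 and 16.95 ± 4.21 CPM (SD, n = 3 each), so the control and treated means were almost equal and the treated lungs varied most.

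Hypoplastic against control lungs, Shh had a log2 fold change of -0.44 (SE 0.195, 95% interval -0.88 to -0.0036), with an unadjusted p of 0.0485 and an edgeR adjusted p of 0.401. Of all genes tested, 5.69% were lower at an unadjusted p under 0.05, and 9.05% were lower without overlap of the groups, so a gene with this much difference was common in the comparison. Treated against hypoplastic lungs, the log2 change of Shh was 0.42 (SE 0.194, 95% interval -0.01 to 0.86, edgeR adjusted p 0.901). These comparisons share the hypoplastic libraries, so the opposite signs are not separate observations. Treated against control lungs, the change was -0.02 (95% interval -0.45 to 0.41).

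A single library moved these Shh values. Without control library 2, which had the highest control level, the hypoplastic change was -0.31 on the log2 scale with an unadjusted edgeR p of 0.165. Sex was not balanced between these groups, and with sex as a covariate the hypoplastic change was -0.38 (unadjusted edgeR p 0.0982, adjusted p 0.633). Without treated library 1 the change under treatment was 0.26 (unadjusted edgeR p 0.232), and without treated library 2 it was 0.61 (unadjusted edgeR p 0.00535, adjusted p 0.812).

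Markers of the epithelium, the tissue that makes the ligand, were measured in the same libraries. In hypoplastic against control lungs 5 of the 6 were lower and 1 was higher, with a median log2 change of -0.19, and none was called. Cdh1, which encodes E-cadherin, was at 691.5 ± 23.9 CPM in control, 580.6 ± 38.6 CPM in hypoplastic and 611.1 ± 23.3 CPM in treated lungs (SD, n = 3 each). In hypoplastic against control lungs its log2 change was -0.25 (edgeR adjusted p 0.369), without overlap, where 9.05% of all genes were lower without overlap. Its treated libraries also lay below all control libraries (log2 change -0.18, edgeR adjusted p 0.998), where 5.02% of all genes did. The summed list ran from 1797 to 1927 CPM in control, 1464 to 1850 CPM in hypoplastic and 1675 to 1836 CPM in treated lungs. Per 100 CPM of that list, Shh was 0.858, 1.04 and 0.86 in control lungs. On the same scale it was 0.632, 0.869 and 0.846 in hypoplastic lungs and 1.2, 0.673 and 1.07 in treated lungs. Set against the epithelial markers, hypoplastic libraries 2 and 3 thus came close to control libraries 1 and 3, and the groups overlapped. The part of epithelial content in the Shh difference was not tested.

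**Figure D2:**
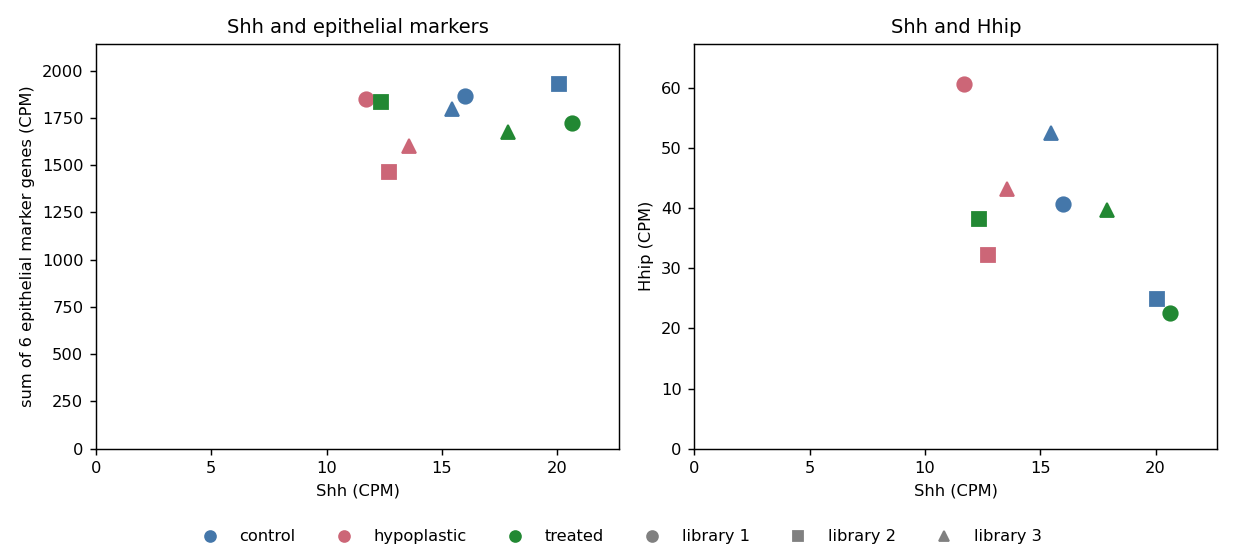
Shh (horizontal axes, CPM) against the sum of 6 epithelial markers (left, CPM) and against Hhip (right, CPM) in the 9 libraries, coloured by group and shaped by library number. The hypoplastic libraries sit at 11.7 to 13.56 CPM of Shh, and the libraries with the highest Shh, treated 1 and control 2, have the lowest Hhip.

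Ptch1 (gene ID 89830), which encodes the receptor and is also a target, had the highest CPM of the 8 genes, a value that depends on transcript length and does not rank the genes. It was at 184.1, 143 and 181.9 CPM in control, 144.5, 177.7 and 179.8 CPM in hypoplastic and 179.9, 167.4 and 192.9 CPM in treated lungs. Each group held values near 180 CPM, and control library 2 and hypoplastic library 1 were low. The log2 change was -0.02 (SE 0.131, 95% interval -0.31 to 0.27) in hypoplastic against control lungs and 0.11 (SE 0.131, 95% interval -0.19 to 0.40) in treated against hypoplastic lungs, with edgeR adjusted p of 0.963 and 0.955. As a ratio, the first interval ran from 0.805 to 1.21. The estimate for Shh was 0.737, with an interval from 0.545 to 0.9975. These intervals overlapped, and a difference between Ptch1 and Shh was not tested.

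Hhip (gene ID 291936) encodes a membrane protein that binds and sequesters the ligand and is itself induced by the pathway. Its CPM was 40.66, 24.83 and 52.49 in control, 60.6, 32.14 and 43.18 in hypoplastic and 22.63, 38.29 and 39.7 in treated lungs. No group stood apart, and the highest library was 2.68 times the lowest, the widest ratio of the 8 genes. The log2 change was 0.20 (SE 0.319) in hypoplastic against control lungs and -0.43 (SE 0.319, 95% interval -1.15 to 0.28, edgeR adjusted p 0.940) in treated against hypoplastic lungs. Without hypoplastic library 1 the latter was -0.17. With intervals this wide, a change of the size of the Shh difference was not detectable for Hhip.

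Gli1 (gene ID 140589), the activator whose transcription is the usual readout of the pathway, was at 17.66, 10.79 and 9.601 CPM in control lungs. It was at 10.93, 12.57 and 9.954 CPM in hypoplastic and 11.74, 14.58 and 10.95 CPM in treated lungs. Control library 1 was the highest of the 9 and control library 3 the lowest, so the control group spanned both others. The log2 change was -0.19 (SE 0.233, 95% interval -0.71 to 0.34, edgeR adjusted p 0.778) in hypoplastic against control lungs. It became 0.14 without control library 1. Treated against hypoplastic lungs it was 0.16 (SE 0.233, edgeR adjusted p 0.960).

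Smo (gene ID 25273), the transducer at the membrane, was among the steadiest members. Its mean was 46.56 ± 4.34 CPM in control, 45.92 ± 2.12 CPM in hypoplastic and 46.41 ± 6.57 CPM in treated lungs (SD, n = 3 each). Sufu (gene ID 361769), which restrains the Gli proteins, was at 25.53 ± 2.15, 25.39 ± 2.45 and 24.97 ± 1.12 CPM in the same order. Their log2 changes lay between -0.03 and 0.02 in the 3 comparisons, with edgeR adjusted p of 0.961 or higher. The 95% intervals of hypoplastic against control lungs, as ratios, were 0.814 to 1.19 for Smo and 0.830 to 1.19 for Sufu.

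Gli2 (gene ID 304729), the main transcriptional activator of the pathway, was at 18.94, 16.59 and 23.11 CPM in control lungs. The hypoplastic lungs were at 16.26, 25.6 and 14.93 CPM and the treated lungs at 19.08, 18.44 and 25.24 CPM. Hypoplastic library 2 was the highest of all 9 and hypoplastic library 3 the lowest. Without library 2, the log2 change in hypoplastic against control lungs went from -0.05 (SE 0.227) to -0.33 (unadjusted edgeR p 0.126).

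Gli3 (gene ID 140588), which is processed to the repressor form when no ligand is bound, had the smallest ratio of highest to lowest library, 1.21 (54.24 to 65.44 CPM over the 9 lungs). It was at 60.84, 57.56 and 63.71 CPM in control, 56.51, 57.59 and 54.24 CPM in hypoplastic and 63.53, 58.93 and 65.44 CPM in treated lungs. All treated libraries lay above all hypoplastic ones, by a narrow margin, and 5.07% of genes tested were higher without overlap in that comparison. The log2 change there was 0.16 (SE 0.0888, 95% interval -0.04 to 0.36, edgeR adjusted p 0.913), and in hypoplastic against control lungs it was -0.11 (SE 0.0888, edgeR adjusted p 0.630). Both kept their sign in all 18 alternatives.

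**Figure D3:**
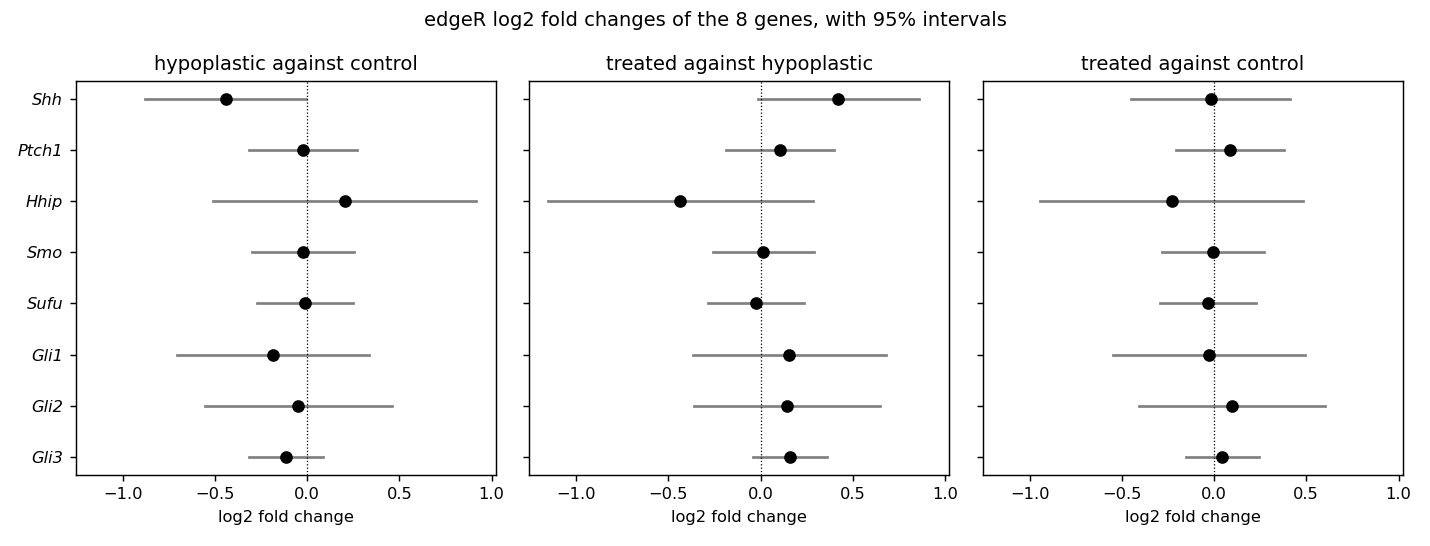
edgeR log2 fold changes (points) and 95% intervals (lines) of the 8 genes in the 3 comparisons, with 0 dotted. The interval of Shh in hypoplastic against control lungs, -0.88 to -0.0036, is the only one that leaves out 0; Hhip has the widest intervals and Gli3 the narrowest.

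Counted over the list, 7 of the 8 genes were lower and 1 was higher in hypoplastic than in control lungs, with a median log2 change of -0.03. Of all 12966 genes tested 6233 were lower, with a median of 0.01. Ptch1, Smo, Gli1, Gli2 and Sufu changed sign there with at least 1 of the single libraries left out. In treated against hypoplastic lungs 6 were higher and 2 lower, with a median of 0.12 against -0.01 for all genes, of which 6236 were higher. Both comparisons share the hypoplastic libraries. Treated against control lungs, 3 were higher and 5 lower, with a median of -0.01 against 0.0028 for all genes, of which 6400 were lower. At an unadjusted p under 0.05 there was 1 member, Shh, in the first comparison, where 12.4% of all genes passed. There was none in the others, where 5.56% and 4.17% did.

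The 8 genes did not vary as a block. Of their 28 pairs, 6 had a Pearson r above 0.5 and 1 below -0.5 for log2 CPM across the 9 libraries, which share group and tissue composition. Gli2 and Gli3 had the highest r, 0.662 (Spearman's rho 0.75), and it was 0.919 over the 7 libraries left without hypoplastic library 2 and treated library 3. The libraries left out had the most Gli2 (25.6 and 25.24 CPM). In hypoplastic library 2, Gli3 was below its mean over the 9 lungs (57.59 against 59.82 CPM). Leaving out a library so far from the others' relation raises r, so the higher value cannot show a closer relation. Shh and Hhip had r = -0.682 (rho -0.583), and -0.677 for deviations from the group means. It was -0.348 without treated library 1 and hypoplastic library 1. Those libraries hold the highest and lowest values of both genes. Leaving them out narrows the range, so the lower r cannot show whether the relation rested on them. Among ligand and targets, r was 0.143 for Shh and Ptch1, -0.114 for Shh and Gli1 and 0.156 for Ptch1 and Gli1. The libraries with most Shh were not those with most Ptch1 or Gli1, except that treated library 3 was high in Shh and Ptch1.

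Among 11351 genes of at least 1 CPM, those most like Shh by Pearson's r over the 9 libraries were Zbtb42 (r = 0.982, Spearman's rho 0.95), Cdadc1 (0.964, rho 0.933) and Dhx32 (0.964, rho 0.967). Zbtb42, a zinc finger gene, averaged 12.73 CPM in control, 8.853 CPM in hypoplastic and 12 CPM in treated lungs. Closest to Gli1 were Ddx41 (r = 0.886, rho 0.9), Sirt6 (0.858, rho 0.7) and Ctu2 (0.842, rho 0.55), the last with a much lower rank correlation. These are the highest of that many values and describe these libraries only.

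The rest of the pathway was followed in a list of 40 further genes in 6 roles. Of these, 31 were in the table and 30 were tested, and edgeR called none in any comparison. Hhat, Scube2, Gas1, Gpr161, Kif7, Tulp3, Iqce, Foxf2 and Foxl1 were not analysed here. In hypoplastic against control lungs 20 were higher and 10 lower, with a median log2 change of 0.05, where 6733 of all 12966 genes tested were higher. At an unadjusted p under 0.05, 4 were higher and 0 lower, where 6.67% and 5.69% of all genes were. In treated against hypoplastic lungs 12 were higher and 18 lower (median -0.08), where 6730 of all genes were lower. At that p, 0 of the list were higher and 2 lower, where 2% and 3.56% of all genes were. In treated against control lungs 17 were higher and 13 lower (median 0.03), and 1, Lrp2, passed that p as a lower gene, where 2.5% of all genes did.

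Among the ligands, Ihh was at 0 to 0.3032 CPM and was not tested, and Dhh was at 2.319 to 4.049 CPM. Dhh had a log2 change of 0.13 (SE 0.236) in hypoplastic against control and -0.32 (SE 0.235) in treated against hypoplastic lungs, where the groups did not overlap (edgeR adjusted p 0.940). In that comparison 4 of the 30 genes, Dhh, Prkacb, Spop and Ccnd2, were lower without overlap, against 4.74% of all genes. Disp1, which releases the lipid-bearing ligand from the cell that makes it, was at 26.07 ± 3.11, 26.15 ± 3.01 and 25 ± 1.87 CPM in control, hypoplastic and treated lungs (SD, n = 3 each).

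Scube1 and Scube3 belong to the family of secreted Scube proteins. Scube1 was at 0.6281, 0.4816 and 0.4882 CPM in control, 2.303, 1.339 and 0.4887 CPM in hypoplastic and 0.4871, 1.04 and 0.8076 CPM in treated lungs. Hypoplastic libraries 1 and 2 were high and library 3 was at the control level. Its log2 change in hypoplastic against control lungs was 1.39 (SE 0.525, unadjusted p 0.0255, edgeR adjusted p 0.363) and was 0.79 without hypoplastic library 1. Scube3 was at 2.73, 6.695 and 0.5611 CPM in hypoplastic lungs and 0.1249 to 1.792 CPM in control lungs. Treated lungs were at 0.8953 to 1.321 CPM, a log2 change of -1.55 (SE 0.789, edgeR adjusted p 0.901) from hypoplastic lungs, which was -0.55 without hypoplastic library 2.

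Of the receptors beside Ptch1, the co-receptor gene Cdon was at 50.01, 38.51 and 49.62 CPM in control and 66.64, 72.58 and 46.77 CPM in hypoplastic lungs. Libraries 1 and 2 again lay above control and library 3 did not. The log2 change was 0.43 (SE 0.178, unadjusted p 0.0372, edgeR adjusted p 0.380), and 0.30 without hypoplastic library 2. Lrp2, a large endocytic receptor that also binds the ligand, was at 98.37, 112.5 and 114.9 CPM in control lungs. It was at 94.93, 104.2 and 82.28 CPM in hypoplastic and 94.62, 82.52 and 80.33 CPM in treated lungs. The control and treated groups did not overlap, with a log2 change of -0.34 (SE 0.118, unadjusted p 0.0173, edgeR adjusted p 0.998). In that comparison 5.02% of all genes were lower without overlap. The hypoplastic lungs overlapped both other groups. Their log2 change against control was -0.21 (edgeR adjusted p 0.489), and that of treated against hypoplastic lungs was -0.13 (edgeR adjusted p 0.940).

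Osr1, a mesenchymal transcription factor gene listed among the targets, differed more in size than any member but rested on 1 library. It was at 1.302, 0.9096 and 1.912 CPM in control, 2.44, 9.063 and 2.081 CPM in hypoplastic and 0.9743, 1.136 and 2.79 CPM in treated lungs. The hypoplastic and control values did not overlap, with 2.081 against 1.912 CPM at the nearest. Of the 30 list genes 2 were higher without overlap in hypoplastic against control lungs, against 7.68% of all genes. Hypoplastic library 2 was far above all others. The log2 change was 1.70 (SE 0.625, unadjusted p 0.0222, edgeR adjusted p 0.357) and 0.70 without that library (unadjusted edgeR p 0.176). Treated against hypoplastic lungs it was -1.49 (SE 0.611, edgeR adjusted p 0.895), and -0.49 without the same library. The other target genes measured, Bmp4, Ccnd1, Ccnd2, Mycn and Bcl2, had log2 changes between -0.13 and 0.16 in hypoplastic against control lungs. In treated against hypoplastic lungs they ran from -0.23 for Ccnd2, without overlap, to 0.40 for Mycn, with overlap, at edgeR adjusted p of 0.907 and 0.921.

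The genes high in hypoplastic libraries 1 and 2 went along with markers of other cells. Osr1, Scube3 and Cdon were highest in library 2, in which Col1a1, Col1a2 and Pdgfra of the 6 mesenchyme markers were highest while Tbx4, Tbx5 and Tcf21 were not. The mesothelium markers Wt1 and Msln were also highest in library 2, with a sum of 77.84 CPM against 12.76 to 31.39 CPM elsewhere. Col1a1 was at 598.8 to 1862 CPM in the other 8 libraries. Scube1 had the same order of libraries as both the cardiac and the smooth muscle sums within the hypoplastic group. In the treated group it had the order of the smooth muscle sum but not of the cardiac sum. In the control group it had the order of neither. The 6 smooth muscle markers, whose genes mark a tissue that depends on this signal, summed to 867.2, 551.1 and 467.5 CPM in hypoplastic, 439.6, 190.3 and 517.6 CPM in control and 259.7, 715.7 and 558.7 CPM in treated lungs. All 6 had a higher mean level in hypoplastic than in control lungs, with a median log2 change of 0.72 and none called. The part of these markers in the differences of the pathway genes was not tested.

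**Figure D4:**
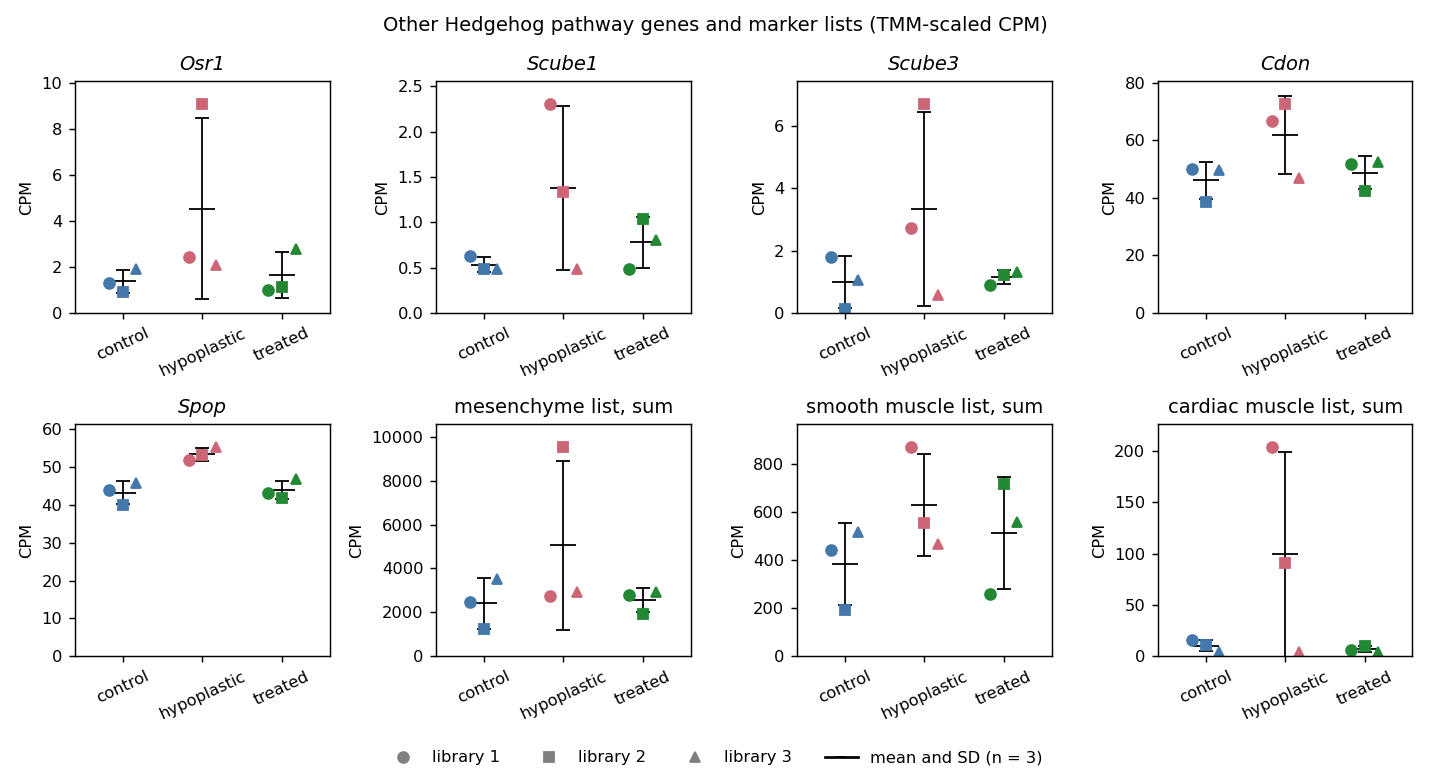
TMM-scaled CPM (vertical axes, from 0) of Osr1, Scube1, Scube3, Cdon and Spop and of 3 marker sums; each point is 1 library and the bars are the mean and SD of 3. Osr1, Scube3 and the mesenchyme sum (9517 CPM) peak in hypoplastic library 2, whereas the 3 hypoplastic libraries of Spop, 51.82 to 55.24 CPM, lie close together above the rest.

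Spop encodes the adaptor of a ubiquitin ligase that targets Gli2 and Gli3 proteins for degradation. It had the smallest unadjusted p of the list in both comparisons with hypoplastic lungs. Its level was 44.08, 39.92 and 45.78 CPM in control, 51.82, 53.25 and 55.24 CPM in hypoplastic and 43.3, 41.93 and 46.75 CPM in treated lungs. All 3 hypoplastic libraries lay above all 6 others, unlike the genes that rested on library 1 or 2. The log2 change was 0.30 (SE 0.0952, unadjusted p 0.00999, edgeR adjusted p 0.323) in hypoplastic against control and -0.28 (SE 0.0951, unadjusted p 0.0152, edgeR adjusted p 0.859) in treated against hypoplastic lungs. It was 0.249 to 0.347 in the first comparison with any 1 library left out. Without overlap of the groups, 7.68% of genes were higher in the first comparison and 4.74% lower in the second, and both share the hypoplastic libraries. Cul3, the scaffold of the same ligase, had log2 changes of 0.12 and -0.05.

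Genes of the primary cilium, the organelle in which Smo acts, differed little. The 7 tested had log2 changes between -0.22 and 0.22 in hypoplastic against control lungs. Evc, which works with Smo at the base of the cilium, was at 17.01, 13.91 and 13.22 CPM in control lungs. It was at 14.2, 11.56 and 12.07 CPM in hypoplastic and 18.06, 14.61 and 15.01 CPM in treated lungs. The treated values overlapped those of control lungs, with a log2 change of 0.11 (SE 0.153, edgeR adjusted p 0.998). Every treated library was above every hypoplastic library, with a log2 change of 0.33 (SE 0.153, unadjusted p 0.0560, edgeR adjusted p 0.901). Evc was the 1 gene of the 30 that was higher without overlap there, against 5.07% of all genes. In treated against control lungs the genes of smallest p after Lrp2 were Ccnd2 (log2 change -0.22), Stk36 (-0.24) and Arl13b (-0.20), each with an edgeR adjusted p of 0.998 and overlapping groups.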

How the data were processed

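Ribosome-depleted total RNA of 9 fetal rat lungs had been extracted on 1 day, per the labels' protocols. The authors deposited 1 table of estimated counts per gene for 9 libraries, not normalized between libraries; the submitters' processing notes name the build rn7 and DESeq2 with no role. For the aligner, the counting settings and the annotation: not given in the sources used here. Gene symbols came from RefSeq tables of assembly GRCr8, used for names and promoter windows, and 17314 of 17465 IDs matched.

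The deposited estimated counts were rounded, since the planned test was for counts. filterByExpr, given the groups, kept 12966 of 17465 genes. edgeR 4.0.16 (R 4.3.3) fitted all 9 libraries with 1 term per group, TMM factors and the quasi-likelihood test (glmQLFit, legacy=FALSE), leaving 6 residual degrees of freedom. P-values were adjusted by Benjamini-Hochberg over all genes tested, with calls at 0.05. The standard error of a log2 change is its absolute value over the square root of F, and 95% intervals use the fit's total degrees of freedom. Correlations used log2 CPM with a prior count of 2. The procedure was tested on simulated data. Alternatives used DESeq2 1.42.0 and limma 3.58.1, other factors, filters and covariates, and left out each library.

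The 8 genes and the lists were chosen with earlier results of these data known. All 8 are named whatever their values. Of the other pathway genes, the rule named the 4 of smallest p in each comparison and any gene called; Dhh, Disp1, Cul3, Prkacb, Bmp4, Ccnd1, Mycn and Bcl2 were added after their values were seen, as were the pairs of members whose correlation is given. Likeness was ranked for Shh and Gli1, with 3 genes named each. In the replicate numbers of the labels, no pairing was found. Deviations from the group mean correlated above 0.1 in 3 of the 9 same-numbered pairs and in 7 of the 18 other-numbered pairs.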

Additional observations from a re-analysis of the deposited data

How the results depend on the processing

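Each of the 8 genes was computed in 3 comparisons under 18 alternatives, 9 of which left out 1 library. Of these 432 values, 393 kept the direction, 39 reversed and 0 were called. Of the reversals, 36 came from leaving out a library. The others were Sufu in hypoplastic against control lungs (log2 change 0.01095) and Shh in treated against control lungs (0.03849) with sex as a covariate, and Gli1 in treated against control lungs with limma voom (0.02127). The cause was not tested. With 1 library left out, log2 changes in hypoplastic against control lungs ran from -0.1305 to 0.07411 for Ptch1, -0.09379 to 0.03681 for Smo, -0.3536 to 0.1362 for Gli1, -0.3265 to 0.09629 for Gli2, -0.06421 to 0.4671 for Hhip and -0.08834 to 0.04931 for Sufu. In treated against hypoplastic lungs they ran from -0.1061 to 0.07685 for Smo, -0.01217 to 0.4235 for Gli2 and -0.08185 to 0.05604 for Sufu. In treated against control lungs they ran from -0.1839 to 0.1665 for Shh, -0.02314 to 0.162 for Ptch1, -0.1274 to 0.05549 for Smo, -0.1959 to 0.3018 for Gli1, -0.05971 to 0.2354 for Gli2, -0.4739 to 0.03417 for Hhip and -0.1006 to 0.02094 for Sufu. Shh stayed lower in hypoplastic than in control lungs under all 18 alternatives, with an unadjusted p under 0.05 in 9 of them and adjusted p from 0.3303 (DESeq2) to 0.8483.

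Over all genes, hypoplastic against control lungs gave 1 called gene by edgeR, 207 by DESeq2 and 4 with only the 6 libraries compared. The other comparisons gave 0 by edgeR and 17 and 14 by DESeq2, with 721 and 541 genes at an unadjusted edgeR p under 0.05. Leaving out 1 library gave 0 to 45, 0 to 44 and 0 to 1 called genes in the 3 comparisons. The highest counts, 45 and 44, came without hypoplastic library 3. The first count was 0 without control library 1 or 3, 2 without hypoplastic library 1, and leaving out treated library 2 gave 5. The second was 2 without hypoplastic library 1, and the third was 1 without control library 2. A fit with the replicate block gave 2, 0 and 0 called genes, none of them among the 8, and the log2 change of Shh was -0.443 (adjusted p 0.5122). The labels do not say that equal numbers pair lungs.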
